A study of Homo sapiens with 4 samples.

Results

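The metallothionein genes MT2A, MT1X, MT1E, MT1F, MT1G and MT1M, 6 of the 36601 genes counted, were described in 4 single-cell libraries of BEAS-2B, a line of human bronchial epithelial cells made immortal with viral genes. The members were found by their symbols in the gene list of the libraries. The groups were control cells without radiation and cells given 10 mGy, 100 mGy or 1 Gy of gamma rays from a caesium source, processed soon after irradiation. The 10 mGy and 100 mGy groups formed the low-dose group of the study and 1 Gy its high-dose group. Each dose had 1 library, so a dose and its library cannot be told apart, and no test between doses was made.

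Metallothioneins are very small proteins in which cysteine recurs along the chain and holds zinc, copper and cadmium ions. Their genes lie side by side, are switched on by the zinc sensor MTF1 through short promoter elements (metal response elements), and also respond to glucocorticoids and oxidants. MT2A is the main form in many human cells, and the MT1 genes are close copies of one another. By the GENCODE 29 annotation (GRCh38, matched to the counts by gene identifier), all 6 genes lie on chromosome 16, MT2A at 56608199 to 56609497, MT1E at 56625475 to 56627112, MT1M at 56632233 to 56633986, MT1F at 56657694 to 56660698, MT1G at 56666731 to 56668065 and MT1X at 56682424 to 56684196. MT1G is on the minus strand and the others are on the plus strand.

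The coding sequences of the 3 genes with the highest counts are shown first, for their shortness and their likeness. The capitals mark the codons TGC and TGT, which encode cysteine, and the sequences were joined from the coding exons of GENCODE 29 on GRCh38.
MT2A: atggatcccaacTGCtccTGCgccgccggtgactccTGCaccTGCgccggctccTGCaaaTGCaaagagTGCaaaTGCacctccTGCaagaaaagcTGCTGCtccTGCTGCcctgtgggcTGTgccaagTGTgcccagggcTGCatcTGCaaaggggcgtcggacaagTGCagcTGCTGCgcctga
MT1X: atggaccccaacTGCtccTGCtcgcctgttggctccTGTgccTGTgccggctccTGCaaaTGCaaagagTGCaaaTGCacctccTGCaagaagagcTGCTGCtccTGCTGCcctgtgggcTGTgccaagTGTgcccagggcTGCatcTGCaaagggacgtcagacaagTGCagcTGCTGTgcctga
MT1E: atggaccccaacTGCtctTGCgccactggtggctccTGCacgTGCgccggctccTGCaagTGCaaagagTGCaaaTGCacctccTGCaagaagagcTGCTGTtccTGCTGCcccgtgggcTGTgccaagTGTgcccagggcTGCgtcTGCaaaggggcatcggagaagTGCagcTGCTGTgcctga
Each of the 6 coding sequences had 186 bases with 61 codons before the stop, of which 20 (32.8%) were TGC or TGT. Between genes, 88.7% (MT1X and MT1F) to 95.2% (MT2A and MT1G) of these bases were the same. Of the 31-base stretches in the transcripts of a gene, 3.25% in MT1F, 7.25% in MT2A, 15.6% in MT1E, 19.8% in MT1X, 23.3% in MT1G and 23.8% in MT1M also occurred in another gene. The sharing was not only between MT1 genes. Of the 362 shared stretches of MT1X, 292 occurred in AC026461.1 and 77 in MT1G. How reads from such stretches were assigned is not given in the sources used here, so the split of counts between genes that share them is uncertain.

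The promoters of MT2A and MT1X are shown for the core of the metal response element, and are the only 2 of the 6 in the promoter table used. The capitals mark TGCACNC and TGCGCNC on either strand, in the 250 bases before the gene start of RefSeq (GRCh38.p14, plus strand), at chr16:56608334-56608583 for MT2A and chr16:56682220-56682469 for MT1X.
MT2A promoter: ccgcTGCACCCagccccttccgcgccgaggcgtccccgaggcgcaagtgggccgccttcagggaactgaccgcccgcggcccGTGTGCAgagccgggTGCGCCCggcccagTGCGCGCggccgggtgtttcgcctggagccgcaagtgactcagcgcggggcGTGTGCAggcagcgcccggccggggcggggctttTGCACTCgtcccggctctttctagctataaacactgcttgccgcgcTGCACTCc
MT1X promoter: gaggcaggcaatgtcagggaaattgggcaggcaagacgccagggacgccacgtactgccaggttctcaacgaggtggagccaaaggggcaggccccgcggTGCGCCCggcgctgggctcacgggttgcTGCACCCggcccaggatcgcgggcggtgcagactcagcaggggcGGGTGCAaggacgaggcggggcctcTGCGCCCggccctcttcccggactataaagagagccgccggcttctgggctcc
The MT2A window held 7 matches and the MT1X window 4. Of 34788 promoter windows of the same length, 24.8% held at least 1 match and 0.368% at least 4. A match is a run of letters and not a measured binding site. The promoters of MT1E, MT1F, MT1G and MT1M are not shown.

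The libraries held 11111 barcodes without radiation, 21514 with 10 mGy, 19950 with 100 mGy and 15510 with 1 Gy, with 211752280 to 285806026 UMIs (unique molecular identifiers, 1 for each captured mRNA molecule). Between 0.386% and 0.864% of the barcodes of a library also occurred in another library. Barcodes whose UMI count multiplied by 3 was under the library median (low-UMI barcodes) were 19.6% of the control library and 41.4%, 27.4% and 25.4% of the libraries of rising dose. The epithelial keratins KRT7, KRT8 and KRT18 were present at 229 to 682 CPM (UMIs per 1000000, the mean over barcodes) in every library, while the epithelial markers CDH1 and EPCAM stayed at or under 1.15 CPM. KRT19 stayed at or under 2.22, and the mesenchymal VIM reached 2422 to 2872, FN1 588 to 1568 and CDH2 113 to 185. The defining markers of leukocytes (PTPRC, CD3E), endothelium (PECAM1, CDH5) and fibroblasts (COL3A1, DCN) were at or under 0.178 CPM, and CD68, also listed for leukocytes, was at 6.84 to 10.6.

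MT2A, the main zinc-binding form, was one of the most counted genes of these cells. Its mean level, after scaling every barcode to 10000 UMIs, was 31 UMIs without radiation, 55.6 with 10 mGy, 45.3 with 100 mGy and 30.2 with 1 Gy. It ranked 19 among all genes without radiation, 6 with 10 mGy, 17 with 100 mGy and 21 with 1 Gy. The 2 low-dose libraries lay above the other 2, and 10 mGy lay above 100 mGy. MT1E, a closely related form, had 2.60, 5.71, 4.26 and 2.49 UMIs per 10000 in the same order of libraries. MT1X had 0.831, 1.5, 1.38 and 0.741. MT1F, MT1M and MT1G were rare. MT1F had 3.93, 11.1, 7.08 and 4.02 CPM, MT1M had 1.66, 4.72, 3.87 and 2.14, and MT1G had 0.148, 0.233, 0.291 and 0.240. Since 1 UMI stands for the 3′ end of 1 molecule, these levels are not divided by gene length.

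**Figure D1:**
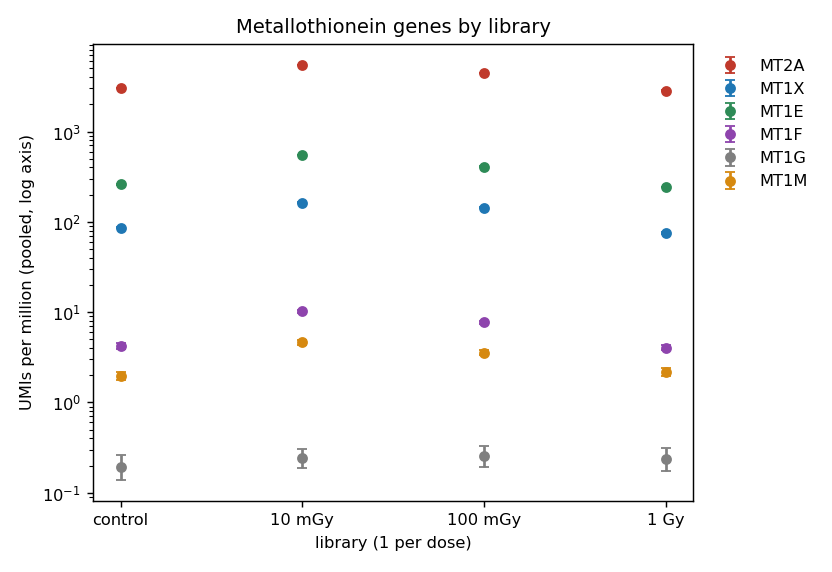
UMIs per 1000000 of all UMIs of a library (log axis) for the 6 metallothionein genes in the 4 libraries, 1 library per dose. Bars are exact 95% Poisson intervals and cover counting error only. MT2A lies at 3040 without radiation, 5477 with 10 mGy, 4449 with 100 mGy and 2843 with 1 Gy, and the 5 other genes lie below it in every library.

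The order of the 6 genes was the same in every library, from MT2A over MT1E, MT1X, MT1F and MT1M down to MT1G, and the counting intervals of neighbours in this order did not overlap. MT2A gave 89.6% of the UMIs of the 6 genes without radiation, 88.2% with 10 mGy, 88.8% with 100 mGy and 89.8% with 1 Gy. MT1E gave 7.69%, 8.90%, 8.13% and 7.66%. MT1X gave 2.52%, 2.62%, 2.85% and 2.38%. The share of MT2A was thus lowest, and that of MT1E highest, at 10 mGy. Together the 6 genes gave 0.339% of all UMIs without radiation, 0.621% with 10 mGy, 0.501% with 100 mGy and 0.317% with 1 Gy.

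Other genes of the family added little. MT1A had 117, 400, 223 and 172 UMIs in the control, 10 mGy, 100 mGy and 1 Gy libraries, a ratio of 2.55 to the control at 10 mGy (exact 95% interval 2.07 to 3.16 on pooled counts). MT3, known from neurons, had 7, 12, 5 and 5 UMIs. MT1B had 3, 3, 0 and 1, MT1H had 0, 1, 1 and 1, and MT1HL1 had 0, 2, 0 and 1.

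The study called a gene different from the control beyond a 1.2-fold change, and the same limit was used here without a p-value. Of the 6 genes, 3 (MT2A, MT1X and MT1E) had the mean of 10 CPM over the 4 libraries that was asked of a gene. At 10 mGy all 3 were over 1.2-fold higher than the control, where 16.1% of the 8513 genes that met the same floor were. The ratio of mean levels was 2.2 for MT1E, 1.81 for MT1X and 1.79 for MT2A. On pooled counts the exact 95% intervals were 2.10 to 2.14 for MT1E, 1.87 to 1.93 for MT1X and 1.80 to 1.81 for MT2A. MT1E thus stood above the other 2 by more than counting error. Under the floor, MT1F was at 2.83 and MT1M at 2.84 by mean levels, or 2.42 (2.24 to 2.61) and 2.34 (2.10 to 2.62) on pooled counts. MT1G, with 69 UMIs against 41, had a pooled ratio of 1.25 (0.839 to 1.89), so no difference was detectable at this depth.

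At 100 mGy the same 3 genes were over 1.2-fold higher than the control, where 13.9% of all genes were. MT1X was at 1.67, MT1E at 1.64 and MT2A at 1.46 times the control. Relative to the median short gene (shortest 10% of genes), MT2A was at 1.16 times and no longer passed the limit. At 1 Gy 0 of the 3 were over 1.2-fold higher, where 1.61% of all genes were, and 0 were over 1.2-fold lower. The ratios were 0.976 for MT2A, 0.958 for MT1E and 0.892 for MT1X. These 3 comparisons share the control library. The comparison of 100 mGy with 1 Gy, which does not use it, gave ratios of 1.87 for MT1X, 1.71 for MT1E and 1.5 for MT2A. The median short gene was at 1.26 there. Relative to it MT1X was at 1.48 times, MT1E at 1.36 and MT2A at 1.19, under the limit.

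Between the low doses, MT2A at 100 mGy was 0.815 times its level at 10 mGy, MT1E was 0.745 times and MT1X 0.920 times. For MT2A and MT1E this passed the limit of 1.2-fold lower, as it did for 11.3% of all genes. MT1F (0.754 on pooled counts, 0.711 to 0.8) and MT1M (0.771, 0.707 to 0.840) were also lower at 100 mGy. The order 10 mGy, then 100 mGy, then both the control and 1 Gy held for all 3 genes that met the floor, for 11.1% of all genes and for 34.7% of the short genes (the shortest 10%).

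The libraries differed in other ways that move with these levels. Ribosomal protein genes took a median of 14.0% of the UMIs of a barcode without radiation, 20.5% with 10 mGy, 22.0% with 100 mGy and 14.4% with 1 Gy. In the same order, the middle barcode of a library had 19771, 13757, 12417 and 14277 UMIs. Low-UMI barcodes, a larger share in the irradiated libraries, lower a mean taken without scaling. With them left out, the middle barcode had 21752, 19927, 15108 and 16426 UMIs in the same order. With them included and without scaling, the mean UMIs of the 6 genes per barcode were 1.27 times the control at 10 mGy, 0.945 times at 100 mGy and 0.665 times at 1 Gy. The higher level at 100 mGy is therefore a higher share of the UMIs of a barcode, and fewer UMIs of other genes and more of these cannot be told apart. The part of depth and of the ribosomal protein share in these ratios was not tested.

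The low-dose ratios of all genes went with gene length. Over the 8513 genes the median ratio to the control was 0.803 (10 mGy), 0.770 (100 mGy) and 1.00 (1 Gy). The 848 short genes, taken as the shortest 10% (joined annotated exons up to 2156 bases, metallothioneins left out), had medians of 1.28, 1.26 and 1.00. Joined exons cover every annotated transcript of a gene and can exceed the length of its mRNA (6933 bases for the ribosomal protein gene RPL28). Of the 848, 20 were ribosomal protein genes. Among these short genes 59.4% at 10 mGy and 56.1% at 100 mGy were over 1.2-fold higher than the control. The joined exons of MT2A were 1299 bases, those of MT1X 1773 and those of MT1E 1052, while their longest protein-coding transcripts were 786, 538 and 729 bases.

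**Figure D2:**
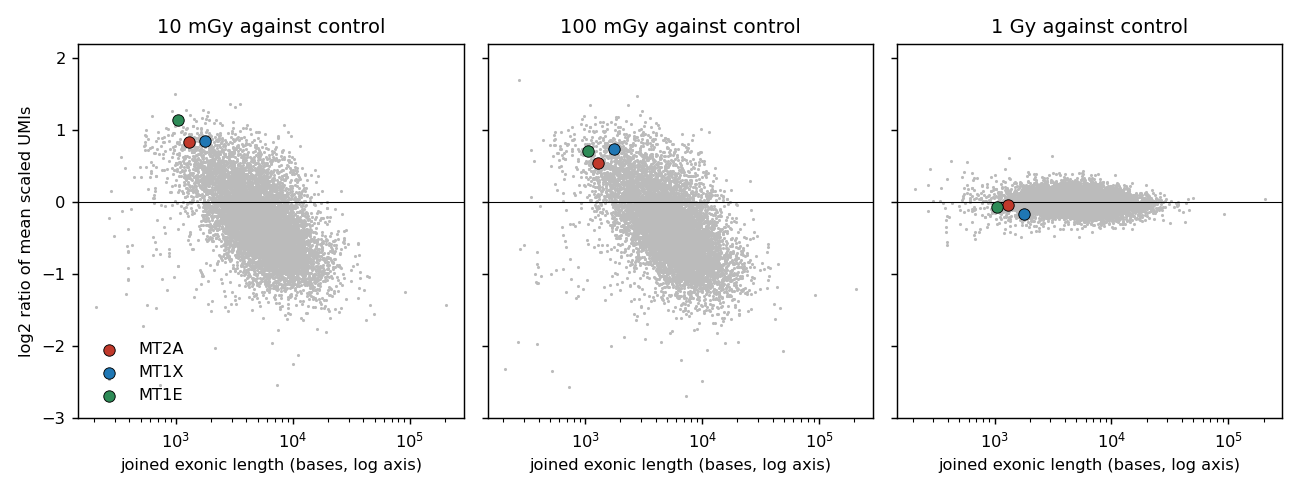
Log2 ratio of the mean scaled UMIs of each irradiated library to the control against joined exonic length (log axis), for genes with a mean of at least 10 CPM. Grey points are all such genes and coloured points are MT2A, MT1X and MT1E, which sit among the short genes and above 0 at 10 mGy (0.84 to 1.14) and 100 mGy (0.55 to 0.74) and from -0.16 to -0.04 at 1 Gy.

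Set against the short genes, MT1E at 10 mGy had a higher ratio than 98.3% of them, MT1X than 91.5% and MT2A than 91.0%. MT1E lay above their median by 0.79 on the log2 scale, MT1X by 0.50 and MT2A by 0.49, which is 1.72, 1.42 and 1.4 times. At 100 mGy the same 3 genes lay above 82.3%, 84.2% and 71.2% of the short genes, in this order of names, and inside the range from the 5th to the 95th percentile. With only genes of at least 100 CPM, these became 64.4%, 69.5% and 48.0%, so MT2A then lay below the middle short gene. At 1 Gy MT2A and MT1E lay below the middle, above 36.9% and 30.4%, and MT1X above 11.7%. The position depended on the choice of short genes. With the longest protein-coding transcript as length, MT2A and MT1X came to 89.4% and 89.99% at 10 mGy and to 65.4% and 80.8% at 100 mGy. MT1E came to 98.6% and 78.8% at these doses. With only genes of at least 100 CPM, MT2A and MT1X at 10 mGy came to 83.6% and 85.9% while MT1E was at 98.3%. For 100 mGy against 10 mGy, MT1E lay above 4.72% of the short genes, MT2A above 8.37% and MT1X above 25.8%, and the median short gene was at 0.987.

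**Figure D3:**
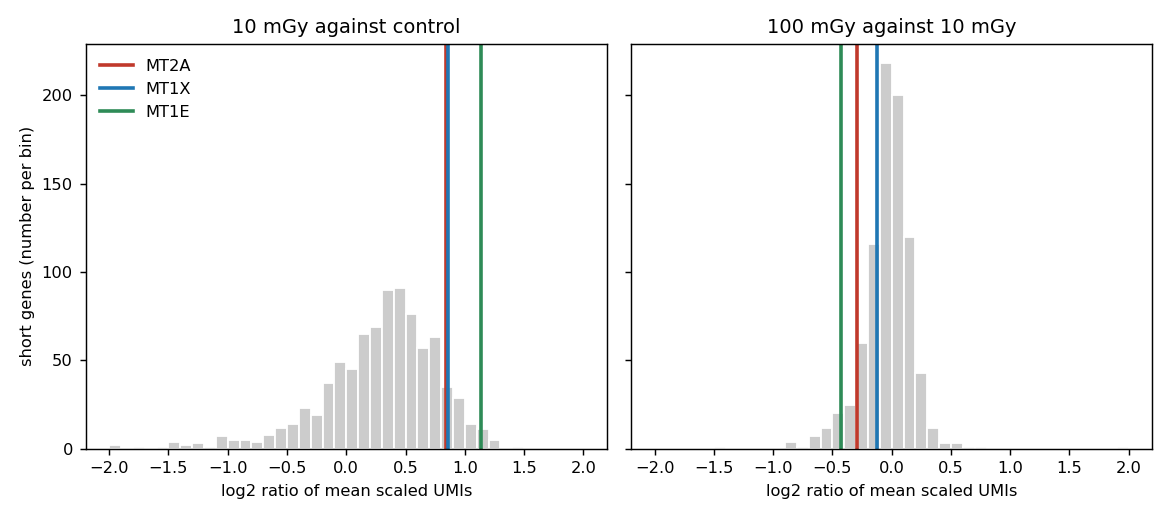
Number of short genes per bin of the log2 ratio of mean scaled UMIs, at 10 mGy against the control and at 100 mGy against 10 mGy, with lines for MT2A, MT1X and MT1E (values beyond 2 on either side are put in the end bins). At 10 mGy the 3 lines (0.84, 0.86 and 1.14) lie in the upper part of the distribution, and between the low doses the lines for MT2A (-0.29) and MT1E (-0.42) lie in its lower part.

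The short genes nearest to each metallothionein in mean level spread widely. Next to MT2A, the ferritin heavy chain gene FTH1 was at 1.32 times the control at 10 mGy and 0.961 times at 100 mGy, the ribosomal protein gene RPL41 at 1.47 and 1.69, and the mitochondrially encoded MT-CYB (cytochrome b, no metallothionein) at 0.812 and 0.945. Next to MT1E, the cytochrome c oxidase subunit gene COX6B1 was at 1.94 and 1.83, EDF1, a transcription coactivator, at 1.56 and 1.52, and PPDPF at 0.905 and 0.850. Next to MT1X, the biliverdin reductase gene BLVRB was at 2.44 and 1.80, PCBD1 at 1.51 and 1.44, and GGCT at 1.07 and 1.04. Of these 9 genes, BLVRB and FTH1 had a ratio of 100 mGy to 10 mGy (0.737 and 0.729) as low as that of MT1E.

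The higher level at the low doses was seen from the lower to the upper end of the barcodes, and the part of free RNA in it was not tested. In barcodes that were not low-UMI, the sum of the 6 genes per 1000000 UMIs had a 10th percentile of 1933 without radiation, 3560 with 10 mGy, 2542 with 100 mGy and 1753 with 1 Gy. The median was 3203, 5775, 4619 and 2938, and the 90th percentile was 5169, 9176, 7881 and 4744. Relative to the control, the 10 mGy library was thus at 1.84, 1.80 and 1.78 times at these 3 points, and the 100 mGy library at 1.31, 1.44 and 1.52 times. Its lower end lay nearer to the control than its upper end. The top 10% of barcodes held 18.5% of the summed scaled level without radiation, 18.0% with 10 mGy, 19.8% with 100 mGy and 18.5% with 1 Gy. Among all barcodes that were not low-UMI, 0 of 8937 in the control, 0 of 12603 at 10 mGy, 0 of 14477 at 100 mGy and 0 of 11566 at 1 Gy lacked a UMI of the 6 genes. This allows shares of up to about 0.0336%, 0.0238%, 0.0207% and 0.0259%, each limit being 3 over the number of barcodes and not an exact one.

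**Figure D4:**
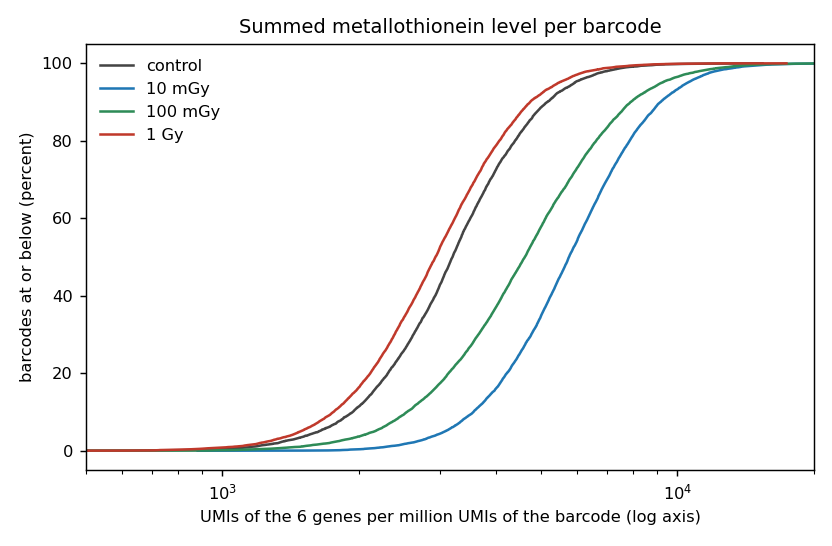
Percent of barcodes (low-UMI barcodes left out) at or below a given level of the 6 metallothionein genes, in UMIs per 1000000 UMIs of the barcode (log axis), for the 4 libraries. The 10 mGy curve lies farthest right (median 5775), then 100 mGy (4619), the control (3203) and 1 Gy (2938).

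The low-UMI barcodes had the same order at the low doses, with 1 Gy above the control and not below it. Their mean was 3551 CPM without radiation, 6482 with 10 mGy, 5325 with 100 mGy and 3965 with 1 Gy, against 3423, 6160, 5021 and 3145 in the others. The ratio to the control was 1.83 in low-UMI and 1.80 in other barcodes at 10 mGy, then 1.5 and 1.47 at 100 mGy. With 1 Gy it was 1.12 in low-UMI barcodes and 0.919 in the others. Within the 4 classes set by the quartiles of UMI count in the other barcodes, the ratio was 1.72 to 1.89 at 10 mGy, 1.44 to 1.49 at 100 mGy and 0.878 to 0.946 at 1 Gy. The quartiles were those of each library, so the classes differ in depth between libraries (the lowest class had a median of 14854 UMIs in the control and 8966 at 100 mGy).

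Counted in barcodes thinned to 5000 UMIs, MT2A was seen in 100% of barcodes in the control and at 10 mGy, in all but 1 of 14271 at 100 mGy and in 99.96% of 11530 at 1 Gy. The thinning kept 81.5% of the barcodes without radiation, 58.4% with 10 mGy, 71.5% with 100 mGy and 74.3% with 1 Gy. MT1E was seen in 66.2% of the thinned barcodes in the control (exact 95% interval 65.2% to 67.2%), 88.8% at 10 mGy, 80.1% at 100 mGy and 64.9% at 1 Gy. MT1X was seen in 34.6%, 52.9%, 49.0% and 30.3%. Unthinned, with low-UMI barcodes included, the shares were 84.6%, 84.3%, 80.1% and 76.7% for MT1E and 66.8%, 61.6%, 63.1% and 52.4% for MT1X and did not follow the order of the mean levels. MT1F was seen in 1.89%, 4.71%, 3.84% and 1.96% of the thinned barcodes, MT1M in 0.971%, 2.15%, 1.72% and 1.09%, and MT1G in 0.110%, 0.143%, 0.119% and 0.113%. A single cell line has no cell type that should lack these genes, so the part of free RNA in these shares was not tested.

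The study used dispersion, the standard deviation over the mean across cells, to screen genes whose spread narrows from 10 mGy to 100 mGy. That of MT2A was 45% without radiation, 37.5% with 10 mGy, 49.5% with 100 mGy and 47.7% with 1 Gy. MT1E had 97.4%, 81.9%, 108% and 118%, and MT1X had 140%, 138%, 162% and 191%. At 10 mGy all 3 had a lower dispersion than in the control, as did 5.56% of all genes and 24.5% of the short genes. From 10 mGy to 100 mGy the dispersion narrowed for 0 of the 3, and for 1.39% of all genes. The direction depended on the scaling. Unscaled UMIs also carry the spread in UMI count between barcodes. On them the dispersion of MT2A was 74.2% without radiation, 103% with 10 mGy, 95.9% with 100 mGy and 84.1% with 1 Gy. All 3 genes were then lower at 100 mGy than at 10 mGy, and the share of all genes on unscaled UMIs was not counted. Scaled, over all barcodes and with the counting variance taken off, the squared dispersion of MT2A was 0.143, 0.0884, 0.163 and 0.129. That of MT1E was 0.300, 0.159, 0.257 and 0.291, and that of MT1X 0.237, 0.207, 0.219 and 0.217, again lowest at 10 mGy over all barcodes. For MT1X this did not hold at equal depth. In barcodes thinned to the same UMI count, its variance over the mean was 1.089, 1.206, 1.171 and 1.096. The means were 0.4427, 0.8092, 0.7162 and 0.3773 UMIs. With counting variance taken off, MT1X was then lowest in the control. MT1E and, by a small margin, MT2A stayed lowest at 10 mGy. Without low-UMI barcodes, a larger share at 10 mGy than in the control, the scaled dispersion of MT2A was 41.6%, 39.7%, 47.6% and 42.1%. MT1E then had 73.9%, 60.2%, 75.2% and 78.4%, and MT1X had 88.7%, 76.6%, 88.1% and 104.9%. Among the short genes near MT2A, FTH1 had dispersions of 33.8%, 30.2%, 39.9% and 36.6%, the same order of the 4 libraries as MT2A. RPL41 had 29.90%, 28.02%, 30.98% and 33.12%, and MT-CYB had 65.4%, 56.7%, 58.4% and 51.6%, in other orders. COX6B1 and EDF1 had the order of MT1E, which they lie near in level, and PPDPF did not. BLVRB had the order of MT1X, and PCBD1 and GGCT did not.

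The 3 counted genes varied together from cell to cell, though weakly. Across barcodes thinned to 5000 UMIs, the Pearson correlation of log2(UMIs + 1) between MT2A and MT1E was 0.190 without radiation, 0.265 with 10 mGy, 0.263 with 100 mGy and 0.199 with 1 Gy. Between MT2A and MT1X it was 0.132, 0.186, 0.181 and 0.105, and between MT1X and MT1E 0.0635, 0.0689, 0.0778 and 0.0654. A short gene outside the family reached values of this size. FTH1, a short gene near MT2A in level, had correlations of 0.214, 0.237, 0.239 and 0.196 with MT2A, above those of MT1X in every library, and of 0.0800, 0.0838, 0.0818 and 0.0614 with MT1E. RPL41 had 0.0655, 0.0525, 0.0671 and 0.0399 with MT2A and 0.0766, 0.0656, 0.0835 and 0.0534 with MT1E, close to the pair MT1X and MT1E. The other 7 short genes nearest to a member in level had correlations of -0.0726 to 0.0532 with MT2A. The points are barcodes of 1 library and share its depth and the shared sequence of these genes. Counts as low as these lower a correlation, and the higher values in the low-dose libraries came with higher counts. The part of this in the difference was not tested.

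**Figure D5:**
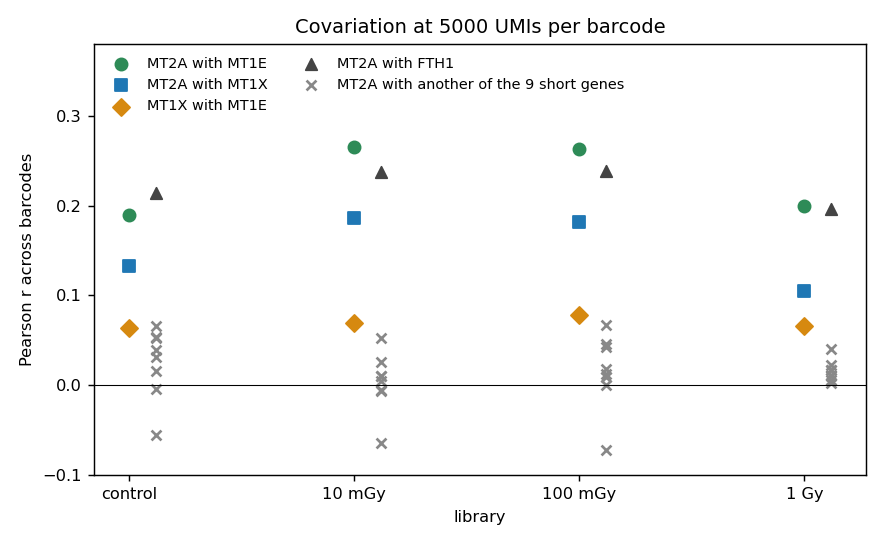
Pearson correlation across barcodes (thinned to 5000 UMIs) for the pairs of MT2A, MT1E and MT1X, for MT2A with FTH1 (triangles) and, as crosses, for MT2A with the other 8 short genes nearest to a member in level, in the 4 libraries. The pair MT2A and MT1E lies at 0.190 to 0.265, MT2A and MT1X at 0.105 to 0.186, FTH1 at 0.196 to 0.239 and the crosses at or under 0.0671.

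Among 3474 genes with at least 50 CPM, the 10 with the highest mean correlation with the summed 6 genes (a sum that is mostly MT2A) were led by FTH1, which stores iron, at 0.218, 0.240, 0.242 and 0.198. G0S2, an inhibitor of fat breakdown, followed with a mean of 0.164, then the calcium-binding S100A6 with 0.163, HMOX1 with 0.152 and FTL with 0.148. The other 5 were RPS28, TMSB10, RALA, KCNMA1 and RPL28, with means from 0.126 to 0.147. HMOX1 degrades heme and FTL is the light chain of ferritin. The 5 lowest were the mitosis genes MKI67, CENPF, TPX2 and ASPM and the nuclear RNA MALAT1, with means from -0.140 to -0.123, and the median of all genes was -0.0072. The sum of the 6 genes had a correlation of -0.189, -0.183, -0.201 and -0.193 with the sum of 20 G2/M genes and of 0.0315, -0.0179, 0.0009 and 0.0246 with the sum of 20 S phase genes. It had one of 0.200, 0.190, 0.175 and 0.148 with the sum of the ribosomal protein genes and of -0.0352 to 0.0333 with the total UMI count.

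Over all 8513 genes, 16.1% were over 1.2-fold higher and 54.2% lower than the control at 10 mGy, 13.9% and 58.7% at 100 mGy, and 1.61% and 1.3% at 1 Gy. MTF1, the zinc sensor that drives the metallothionein genes, had 26.0 CPM without radiation, 17.4 with 10 mGy, 14.7 with 100 mGy and 30.5 with 1 Gy. SLC30A1, a zinc exporter and another known MTF1 target, had 16.4, 12, 10.6 and 17.7. Of the 15 zinc list genes that met the floor, 1 was over 1.2-fold higher and 10 lower at 10 mGy, with a median ratio of 0.773 beside 0.803 for all genes. At 100 mGy it was 1 higher and 11 lower, with a median of 0.705 beside 0.770, and at 1 Gy 0 of either. The importer SLC39A4 was at 1.30 and SLC39A3 at 1.04 times the control at 10 mGy, while SLC39A7 (0.577) and SLC30A7 (0.576), transporters of the secretory pathway, were at the low end. The joined exons of these 15 genes had a median of 5474 bases, against 5315 for all genes.

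In the copper list, 6 of 11 genes were over 1.2-fold higher and 3 lower at 10 mGy (16.1% and 54.2% of all genes), with a median ratio of 1.28. The chaperones COX17 (1.88) and CCS (1.67) were highest, and SCO1 (0.661) and STEAP3 (0.711) lowest. Of the 6 higher genes, SCO2, SOD1, COX17, COMMD1 and CCS had joined exons of 1196 to 2474 bases and ATOX1 had 5239, while the other genes of the list had 4562 to 10325. The part of gene length in these counts was not tested. The median length was 5175 bases in the glucocorticoid list, 2610 in the metal and oxidant stress list, 4392 in the S phase list and 3873 in the G2/M list. At 100 mGy the counts were again 6 and 3 (13.9% and 58.7% of all genes). In the glucocorticoid list 1 of 9 was higher and 7 lower at 10 mGy (all genes 16.1% and 54.2%), with a median of 0.679. CEBPD was at 1.46 and KLF9 at 0.936, PER1 at 0.410 and ANGPTL4 at 0.460. At 1 Gy the copper list had 1 gene higher (COX17, 1.26) and the glucocorticoid list 0 in either direction (all genes 1.61% and 1.3%).

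In the list of metal and oxidant stress genes, 5 of 14 were higher and 6 lower at 10 mGy (all genes 16.1% and 54.2%), with a median of 0.931, and 3 were higher and 6 lower at 100 mGy (13.9% and 58.7%). FTL (1.80) and PRDX1 (1.69), a peroxide-removing enzyme, were at the high end, and GCLM (0.615) and GCLC (0.629), the subunits of the enzyme that starts glutathione synthesis, at the low end. Between the low doses 0 of the 14 were over 1.2-fold higher and 4 lower at 100 mGy, beside 11.3% of all genes lower. These were HMOX1 (0.541 times its level at 10 mGy), FTL (0.655), FTH1 (0.729) and SLC7A11 (0.730), a cystine importer. In the S phase list 2 of 20 genes were higher and 6 lower at 10 mGy (all genes 16.1% and 54.2%), led by PCNA (1.49) and TYMS (1.30), with UHRF1 (0.570) and MCM4 (0.664) lowest. In the G2/M list 3 of 20 were higher and 10 lower at 10 mGy, beside the same shares, led by UBE2C (1.65) and CCNB2 (1.46), with MKI67 (0.466) and CENPE (0.502) lowest.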

How the data were processed

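Single-cell libraries of BEAS-2B cells, 1 for each of 4 doses taken from the sample labels, were used. The deposited values are raw UMI counts for each gene in each barcode, made with the Chromium 3′ v3 kit and Cell Ranger 7.0.1 per the file headers. The submitters' processing notes name STAR, Cell Ranger and GRCh37 with no role. The annotation, and how intronic reads and reads shared between genes were treated, is not given in the sources used here. No filter on cells is stated in the methods of the study, so every deposited barcode was used and doublets were kept (no caller was run). Each library holds more barcodes (11111 to 21514) than the approximate number of cells the study gives for a group, and without low-UMI barcodes this holds for the 3 irradiated libraries (11566 to 14477) and not for the control (8937), and more genes are listed (36601) than the study counts. How the study arrived at its numbers is not given in the sources used here.

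UMIs were scaled to 10000 per barcode and averaged over barcodes, and CPM is this mean per 1000000 UMIs unless called pooled. Pooled CPM is the count of a gene per 1000000 of all UMIs of a library. Pooled CPM has exact Poisson intervals, and pooled ratios and shares have exact binomial intervals, all at 95%. They cover counting error only. Totals of 211752280 to 285806026 UMIs make them narrow, so precision is limited by the lack of replicates. A gene was kept where its level, averaged over the 4 libraries, reached 10 CPM (8513 genes). Lengths came from GENCODE 29, matched by identifier for 34616 of 36601 genes, and 2 of 6 promoters were in the RefSeq table. The members, lists and rules were chosen with earlier results of these data known. The order of the 4 libraries as a pattern, the comparison of dispersion at 10 mGy with the control, the limit at the 90th percentile of short genes and the tolerance of 0.05 on correlations were chosen after values were seen. Named genes were the 6 members, other family members with a UMI, MTF1, SLC30A1, the 2 highest and 2 lowest genes of each list at 10 mGy, the 3 short genes nearest to a member in level, and the 10 highest and 5 lowest correlations. COX17 at 1 Gy and the 4 stress list genes lower at 100 mGy than at 10 mGy were named after their values were seen, as members of a small count. SCO2, SOD1, COMMD1 and ATOX1 of the copper list were named outside these rules, to give their lengths.

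The ratios, the variance in excess of counting and the correlation were tested on simulated data with known answers, a trend on gene length included. Python 3.11.15, numpy 2.4.6, scipy 1.17.1 and pandas 2.3.3 were used. Alternatives covered the scaling, the barcodes kept, the threshold, the floor, the length and the correlation.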

Additional observations from a re-analysis of the deposited data

How the results depend on the processing

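The summed ratio to the control (10 mGy 1.83, 100 mGy 1.48, 1 Gy 0.972) was 1.27, 0.945 and 0.665 on unscaled UMIs, so it reversed at 100 mGy. An unscaled ratio also carries the mean UMI count per barcode, low-UMI barcodes included, a factor shared by every gene of a library. The summed ratio was 1.80, 1.47 and 0.919 without low-UMI barcodes, and 1.80, 1.47 and 0.922 in barcodes thinned to 5000 UMIs. Scaling by the median ratio over short genes gave 1.43, 1.18 and 0.968, and over all genes 2.27 at 10 mGy and 1.92 at 100 mGy. With ribosomal protein and mitochondrially encoded genes left out of the scaling it was 1.94 and 1.61, leaving out barcodes over 2.5 times the median gave 1.82 at 10 mGy, and pooled CPM gave 0.933 at 1 Gy. Depth moves every gene on unscaled UMIs, and no share of all genes was counted there. Of the 3 genes, 0 at 100 mGy and 3 (lower) at 1 Gy then passed 1.2-fold. Above the 90th percentile of short genes lay 3 at 10 mGy, 0 at 100 mGy and 0 at 1 Gy. At 10 mGy this became 1 with the longest protein-coding transcript as length (an alternative added after seeing the data), 1 with a floor of 100 CPM and 5 with a floor of 1 CPM, which adds MT1F and MT1M. At 100 mGy it became 1 with the shortest 20%, 1 with genes of like length and 2 with a floor of 1 CPM. At 1 Gy it became 1 with that floor, MT1M, whose pooled ratio of 1.10 (0.960 to 1.26) was within counting error of the control. On unscaled UMIs, 3 of 3 dispersions were lower at 100 mGy than at 10 mGy and 0 of 3 lower at 10 mGy than in the control. These also carry the spread of depth, and the share of all genes was not counted. The mean correlation of the 3 pairs, 0.15, was 0.255 in unthinned barcodes. At 100 mGy 2 of 3 genes passed 1.2-fold with scaling over short genes and 2 of 3 passed 1.5-fold, MT2A being lost in both. Of the alternatives for single genes' positions among short genes, 65 moved by more than 1 percentile point and 61 did not, and at 100 mGy MT2A fell from 71.2% to 48.0% with a floor of 100 CPM. The other values for these results stayed within their limits. Apart from the scaling and the lower number of genes or barcodes in a setting, causes were not tested. No paired analysis was possible because each dose had 1 library, and for the same reason no library could be left out.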
